A study of Mus musculus with 35 samples.

Results

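The genes described here are 10 transcripts of acid-base transport in the intercalated cells of the kidney collecting duct, namely Foxi1, Slc4a1, Slc4a9, Slc26a4, Slc26a7, Car2, Car12, Aqp6, Rhbg and Rhcg. They were chosen by gene symbol, out of 31053 genes counted, and were followed through all 35 libraries of mouse kidney. Subunits of the proton pump were left out. By known cell type, 3 of them (Slc4a1, Slc26a7 and Aqp6) were taken as genes of type A cells and 2 (Slc4a9 and Slc26a4) as genes of type B cells, while 2 (Rhbg and Rhcg) carry ammonia and 3 (Foxi1, Car2 and Car12) are used by more than 1 type of intercalated cell.

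All animals were C57BL/6 mice, kidneys were taken at postnatal day 2, before cysts appear, and each library is a bulk measurement of kidney RNA. In the Flcn cross, 5 libraries were labelled Flcn KO (Flcn flox/flox, Ksp-cre+) and 5 control Flcn. The Flcn/Tfeb cross gave 4 libraries labelled Flcn/Tfeb DKO, in which Tfeb flox/flox was added to that genotype, and 3 controls. From the Flcn/Tfe3 cross came 10 libraries labelled Flcn/Tfe3 DKO, in which Tfe3 was null in every cell (Tfe3-/-), and 8 controls. The paper gives the control mice of its staining work at this age as Flcn flox/flox. The labels name the controls of each cross only as controls, so which other alleles each control animal carried, Tfe3 included, is not known here. Ksp-cre is driven by the promoter of Cdh16, a cadherin of the distal tubule and collecting duct, so Flcn and Tfeb were targeted in those tubules and in the thick ascending limb. Flcn encodes folliculin, a regulator of the lysosomal transcription factors Tfeb and Tfe3. The comparisons ask whether these acid-base genes differ after loss of Flcn and whether further loss of Tfeb or of Tfe3 alters that difference.

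Intercalated cells set the acid and base content of the urine. Type A cells secrete acid, through proton pumps on the side of the urine and the chloride-bicarbonate exchanger Slc4a1 (AE1) on the side of the blood. Type B cells do the reverse, secreting bicarbonate through Slc26a4 (pendrin). Carbonic anhydrases supply both with protons and bicarbonate, Rhbg and Rhcg let ammonia through the membrane, and Foxi1 is the forkhead transcription factor that these cells need in order to form.

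Libraries were made with the QuantSeq 3′ method, in which each read comes from near the 3′ end of a transcript, and held 1652649 to 4239356 reads on genes (median 2992169). Levels are given as counts per 1000000 reads on genes (CPM) scaled by TMM factors, and 3 counts, the limit that a count of 0 allows, correspond to 0.708 to 1.82 CPM depending on the library. Markers of kidney were present throughout, with a summed level of 1808 to 3440 CPM for 8 proximal tubule genes and 503 to 993 CPM for 11 principal cell genes over the 35 libraries. Flcn itself lay at 10.4 to 18.4 CPM in the libraries labelled Flcn KO and 11.8 to 16.5 CPM in their controls, Tfeb at 6.28 to 7.82 CPM in those labelled Flcn/Tfeb DKO and 6.94 to 19.8 CPM in their controls, and Tfe3 at 12.5 to 24.5 CPM in those labelled Flcn/Tfe3 DKO and 15.3 to 25.3 CPM in theirs. Reads at the 3′ end need not cover a deleted exon, so these levels do not check the labels, and groups are named by their labels throughout. Control Flcn/Tfeb replicate 3 stood apart for several of the genes below, and with 3 controls and 4 DKO libraries several log2 fold changes of that cross rested on 1 library, in which case the values without it are given. Replicate 3 was also the deepest library of its cross. Its tallies of unassigned reads were 9.07% (no feature) and 41.2% (not unique). In the other libraries of that cross they were 17.8% to 19.9% and 46.4% to 49.4%. The part of this in its levels was not tested.

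The sequence before the start of transcription was looked at for those of the 10 genes with a promoter sequence at hand. The RefSeq promoter table (GRCm38.p6) holds 5 of the 10 genes, Aqp6, Car12, Foxi1, Rhcg and Slc26a4, and not Car2, Rhbg, Slc26a7, Slc4a1 and Slc4a9. The 250 bases before the start are printed for the 3 genes called in the Flcn cross and for Slc26a4 as the type B gene. Capitals mark the hexamer CACGTG, the E-box to which Tfeb and Tfe3 are known to bind, which reads the same on both strands. The 4 stretches lie at chr15:99600950-99601199 on the plus strand (Aqp6), chr9:66713436-66713685 on the plus strand (Car12), chr7:79617658-79617907 on the minus strand (Rhcg) and chr12:31559985-31560234 on the minus strand (Slc26a4).
Aqp6: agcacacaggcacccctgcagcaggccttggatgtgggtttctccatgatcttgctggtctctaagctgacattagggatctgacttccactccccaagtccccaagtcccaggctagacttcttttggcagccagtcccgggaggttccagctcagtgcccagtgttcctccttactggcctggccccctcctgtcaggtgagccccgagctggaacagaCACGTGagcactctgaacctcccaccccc
Car12: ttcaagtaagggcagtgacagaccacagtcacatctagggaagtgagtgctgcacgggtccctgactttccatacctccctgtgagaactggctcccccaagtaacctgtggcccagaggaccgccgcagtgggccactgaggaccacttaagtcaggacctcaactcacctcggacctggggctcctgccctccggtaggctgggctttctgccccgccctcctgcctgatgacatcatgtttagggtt
Rhcg: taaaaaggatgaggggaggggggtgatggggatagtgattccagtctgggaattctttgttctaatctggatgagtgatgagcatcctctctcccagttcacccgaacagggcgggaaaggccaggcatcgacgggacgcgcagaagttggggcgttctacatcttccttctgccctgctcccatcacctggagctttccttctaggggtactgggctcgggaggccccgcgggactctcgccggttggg
Slc26a4: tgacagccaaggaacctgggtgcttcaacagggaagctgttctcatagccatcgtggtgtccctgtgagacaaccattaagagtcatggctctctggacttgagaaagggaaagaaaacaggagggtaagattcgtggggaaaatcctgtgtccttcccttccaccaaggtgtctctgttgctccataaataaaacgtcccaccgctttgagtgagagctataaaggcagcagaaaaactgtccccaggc
CACGTG occurred once, 29 to 24 bases before the RefSeq start of Aqp6, which lies 200 bases before the GENCODE start, and in none of the other 4 promoters of these genes. Of all 32851 promoters in the table, 2349 (7.15%) hold it within 250 bases before and 50 bases after the start. The longer form TCACGTG, searched on both strands and overlapping the first, was also found in Aqp6 alone of the 5 and in 3.77% of all promoters. TCACGTGA, which contains both, and the forkhead sequence TGTTTAC were found in none of the 5, against 0.974% and 3.65% of all promoters. A match is a description of these letters only.

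Across the Flcn cross, 3 of the 10 genes rose in the libraries labelled Flcn KO (Aqp6, Rhcg and Car12), none fell, and 1 (Slc4a9) was too low to be tested. Of all 11932 genes tested in that cross, 0.52% were called (0.453% higher and 0.067% lower). The median log2 fold change of the 9 tested genes was 0.62, against -0.01 over all genes tested. In the Flcn/Tfe3 cross 3 of 10 rose (Aqp6, Slc26a7 and Car12) and none fell, where 0.385% of 12456 genes were called (0.345% higher and 0.0401% lower), and the median was 0.51 against 0.01 over all genes. In the Flcn/Tfeb cross none of the 10 was called by edgeR or by DESeq2 and none had an unadjusted p under 0.05 in edgeR. None of the 12469 genes tested in that cross was called either (0.0%), 632 had an unadjusted p under 0.05, and the median of the 10 was -0.18 against -0.02 over all genes. The sign of that median rested on control Flcn/Tfeb replicate 3, without which it was 0.14 with 7 of 10 above 0 and an unadjusted p under 0.05 for 1 (Aqp6). Aqp6, Rhcg, Car12 and Rhbg also stand on the list of increased transcripts that the study drew from libraries of this series, so their direction in the Flcn cross is not independent evidence. In bulk kidney RNA, fewer cells of a type and less RNA per cell cannot be told apart, and the same holds for more of either.

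**Figure D1:**
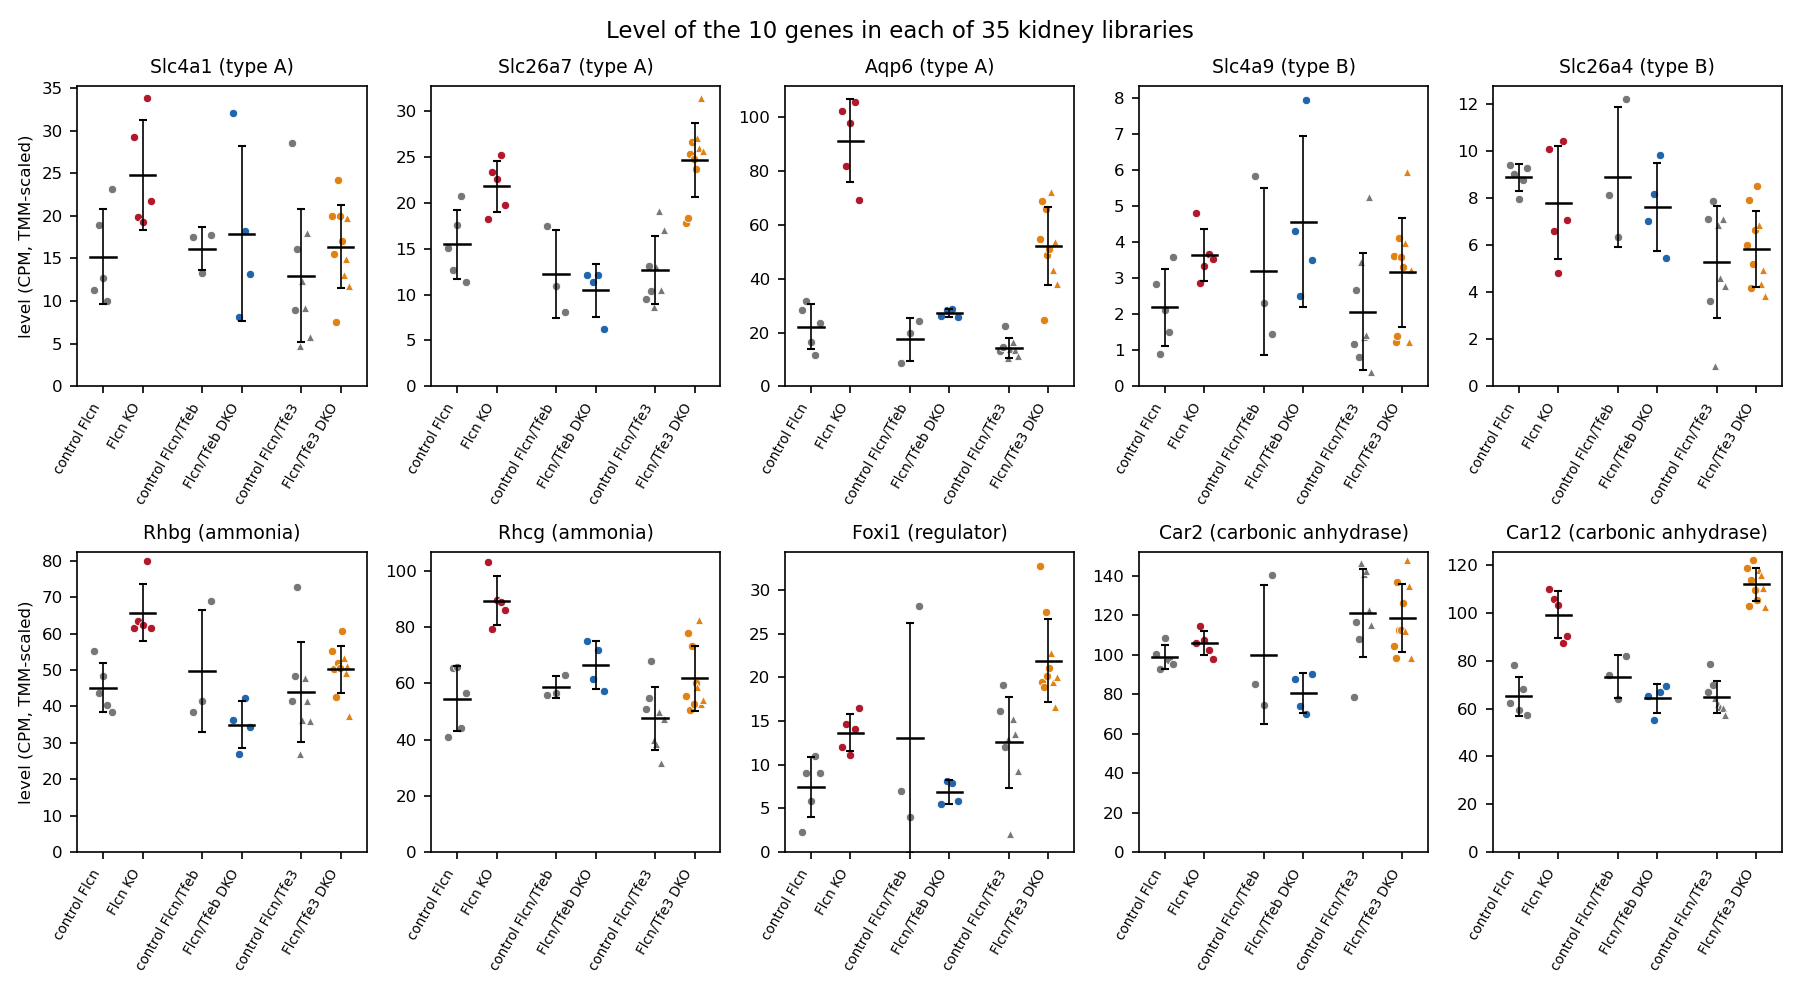
Level of each of the 10 genes in each library, in CPM on a linear axis that starts at 0, for the 6 groups. Points are libraries (triangles are set C of the Flcn/Tfe3 cross), horizontal bars are group means and vertical bars 1 SD on either side, cut at 0 for Foxi1 in control Flcn/Tfeb, and Aqp6 at 69.1 to 106 CPM in Flcn KO lies above all 5 of its controls.

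The regulator Foxi1 (chr11:34204338-34208089, minus strand) was low in all groups and was not called by edgeR in any cross. Its levels were 12, 14.7, 11.1, 14.1 and 16.5 CPM in Flcn KO and 2.35, 9.02, 5.85, 11 and 9.0 CPM in control Flcn. All 5 mutant libraries lay above all 5 controls, the highest control being close to the lowest mutant. Foxi1 had a log2 fold change of 0.83 ± 0.28 (SE, n = 5 and 5) with an adjusted p of 0.33. The exact two-sided permutation test of this gene alone gave p = 0.00794, unadjusted over genes and the smallest that its 252 regroupings allow. In the Flcn/Tfe3 cross, which is spread over 2 deposited tables called set B and set C, Foxi1 ranged from 16.7 to 32.7 CPM (median 20.1, n = 10) in DKO and from 2.06 to 19.2 CPM (median 13.2, n = 8) in controls. These groups overlapped, through 1 control of set B at 19.2 CPM, and within set C they did not. The log2 fold change of 0.69 ± 0.20 had an adjusted p of 0.22 in edgeR and of 0.033 in DESeq2, and the exact permutation test within sets gave p = 0.0018.

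In the Flcn/Tfeb cross Foxi1 was decided by a single control. The 3 controls had 6.99, 4.05 and 28.2 CPM, that is 12, 7 and 97 counts, and the 4 DKO libraries 5.47, 8.17, 7.95 and 5.83 CPM. Replicate 3 of the controls lay above everything else in that cross, and the remaining 2 controls were level with the DKO libraries. The log2 fold change was -1.01 ± 0.55 (adjusted p = 0.80) with all libraries and 0.30 without control replicate 3, so that its sign rested on that library. With all libraries the exact permutation test gave p = 0.74.

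The type A gene Aqp6 (chr15:99601400-99605477, plus strand), a water channel of intracellular vesicles that also conducts anions, had the largest fold change of the 10 genes in the Flcn and Flcn/Tfe3 crosses. It stood at 102, 82.0, 98.0, 106 and 69.1 CPM in Flcn KO and at 28.3, 31.6, 16.5, 11.5 and 23.4 CPM in control Flcn. The lowest mutant library held more than 2 times the level of the highest control. Its log2 fold change was 2.06 ± 0.22 (SE) with an adjusted p of 7.5e-05 by edgeR's quasi-likelihood test, rank 3 of all genes tested by p. In the Flcn/Tfe3 cross it ranged from 24.8 to 72.4 CPM (median 52.3, n = 10) in DKO and from 10.4 to 22.3 CPM (median 13.6, n = 8) in controls. Here too the groups did not overlap, although DKO replicate 3 at 24.8 CPM came near the highest control. Aqp6 had a log2 fold change of 1.81 ± 0.18 (adjusted p = 2.5e-06).

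In the libraries labelled Flcn/Tfeb DKO, Aqp6 was at 26.2, 28.3, 28.8 and 25.7 CPM, against 8.73, 19.7 and 24.1 CPM in the controls of that cross. All 4 DKO libraries lay above all 3 controls, but by at most a few CPM over the highest. The log2 fold change of 0.61 ± 0.30 (0.32 without control replicate 1 and 0.94 without control replicate 3) had an adjusted p of 0.80, with a 95% interval from -0.04 to 1.27, and the exact permutation test gave p = 0.0286, the smallest of its 35 regroupings.

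Slc26a7 (chr4:14502430-14621805, minus strand), a chloride-bicarbonate exchanger on the blood side of acid-secreting cells of the medulla, rose in the Flcn/Tfe3 cross. DKO libraries ranged from 17.8 to 31.5 CPM (median 25.5) and controls from 8.66 to 19.1 CPM (median 11.8). The overlap came from 2 DKO libraries of set B, which lay below the highest control of set C, and within each set the groups did not overlap. Slc26a7 had a log2 fold change of 1.02 ± 0.15 (adjusted p = 0.00060, n = 10 and 8). In set B alone, with 6 of the 10 DKO libraries and 3 of the 8 controls, it was 1.05 and not called (adjusted p = 0.12). In the Flcn cross the values were 18.2, 23.3, 22.6, 25.2 and 19.7 CPM in Flcn KO and 15.1, 12.6, 17.5, 20.8 and 11.4 CPM in control Flcn. A single control, replicate 4, reached into the mutant range. The log2 fold change there was 0.49 ± 0.19 with an adjusted p of 0.42. In Flcn/Tfeb DKO the levels were 12.1, 11.3, 12.1 and 6.22 CPM against 17.5, 11 and 8.14 CPM, which overlapped throughout (log2 fold change -0.19 ± 0.37, adjusted p = 0.90). That value was -0.44 without control replicate 3, 0.16 without control replicate 1 and 0.0095 without DKO replicate 4, so its sign was not settled.

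Slc4a1 (chr11:102348824-102366203, minus strand), the exchanger AE1, is also the band 3 protein of red blood cells and varied widely within groups. Its levels were 29.3, 19.9, 19.2, 33.8 and 21.8 CPM in Flcn KO and 11.3, 18.9, 12.8, 10.0 and 23.1 CPM in control Flcn. Control replicate 5 lay inside the mutant range. The log2 fold change of 0.68 ± 0.24 was not called (adjusted p = 0.37). In Flcn/Tfeb DKO it was 32.0, 8.17, 18.2 and 13.2 CPM against 17.5, 13.3 and 17.7 CPM (log2 fold change 0.17 ± 0.39, or -0.26 without DKO replicate 1), and in the Flcn/Tfe3 cross 7.52 to 24.2 CPM (median 16.3) against 4.76 to 28.5 CPM (median 10.8, log2 fold change 0.24 ± 0.26). The last value was 0.12 without control Flcn/Tfe3 replicate 2 and 0.53 without control Flcn/Tfe3 replicate 1. In both crosses the groups overlapped, and in the Flcn/Tfeb cross the DKO libraries spread more widely than the controls.

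Red blood cell genes were read beside Slc4a1 and Car2, which such cells also hold. Of 13 such genes 5 were high enough to be tested in each cross, the alpha and beta globins Hba-a1, Hba-a2, Hbb-bs and Hbb-bt and the heme enzyme Alas2, and none was called. All 5 had log2 fold changes above 0 in the Flcn cross (0.29 to 0.61) and in the Flcn/Tfeb cross (0.09 to 0.40), and all 5 below 0 in the Flcn/Tfe3 cross (-0.89 to -0.61). The summed level of the 13 genes was 3591 to 12063 CPM in Flcn KO against 3494 to 8635 CPM in control Flcn, 4021 to 7221 CPM in Flcn/Tfeb DKO against 3524 to 6021 CPM in its controls, and 1413 to 6169 CPM in Flcn/Tfe3 DKO against 2087 to 7468 CPM in its controls. With this list's mean level as a covariate, Aqp6 remained called in the Flcn cross (1 gene in place of 3) and Aqp6 and Car12 in the Flcn/Tfe3 cross (2 in place of 3). Over all 11932 genes tested in the Flcn cross, 36 were called with the covariate in place of 62. In the Flcn cross Rhcg then had a log2 fold change of 0.68 (adjusted p = 0.087) in place of 0.72 and Car12 one of 0.53 (adjusted p = 0.088) in place of 0.62. Slc26a7 in the Flcn/Tfe3 cross had 0.85 (adjusted p = 0.062) in place of 1.02. The part of red cell content in these differences was not tested further.

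Neither type B gene was called in any cross, and Slc4a9 was too low to be tested in the Flcn cross. Slc26a4 (chr12:31519827-31559969, minus strand), pendrin, stood at 10.1, 6.62, 4.81, 10.4 and 7.06 CPM in Flcn KO and at 9.42, 9.02, 7.98, 8.75 and 9.30 CPM in control Flcn. The mutant libraries lay on both sides of a narrow control range. Slc26a4 had a log2 fold change of -0.22 ± 0.25 (95% interval -0.75 to 0.31, adjusted p = 0.82). Without Flcn KO replicate 4 Slc26a4 had -0.34, and without Flcn KO replicate 3 it had -0.087. In Flcn/Tfeb DKO it was at 7.03, 8.17, 9.85 and 5.44 CPM against 8.15, 6.36 and 12.2 CPM (log2 fold change -0.25 ± 0.36, or 0.073 without control replicate 3), and in the Flcn/Tfe3 cross at 3.83 to 8.53 CPM (median 5.60) against 0.866 to 7.89 CPM (median 5.73, log2 fold change 0.06 ± 0.27). The groups overlapped in both.

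Slc4a9 (chr18:36528147-36556273, plus strand), the anion exchanger AE4 of type B cells, was the scarcest of the 10, with 1 to 22 counts per library. In the Flcn cross it fell short of the minimum count and was not tested, and the levels were 4.80, 2.88, 3.33, 3.68 and 3.53 CPM in Flcn KO and 2.83, 0.902, 2.13, 1.5 and 3.60 CPM in control Flcn. Only control replicate 5 reached into the mutant range, and the exact permutation test gave p = 0.0476. With no filter on counts its log2 fold change there was 0.70 ± 0.46 (adjusted p = 0.69 by edgeR), not called. Slc4a9 in the Flcn/Tfeb cross was at 4.30, 2.51, 7.95 and 3.5 CPM against 5.82, 2.31 and 1.45 CPM, with a log2 fold change of 0.64 ± 0.60 (adjusted p = 0.81), and of 0.21 without control replicate 3 or 1.36 without control replicate 1. Levels in the Flcn/Tfe3 cross ranged from 1.22 to 5.96 CPM (median 3.45) in DKO and from 0.388 to 5.25 CPM (median 1.39) in controls, with a log2 fold change of 0.71 ± 0.40 (adjusted p = 0.75). Exact permutation tests gave p = 0.37 in the Flcn/Tfeb cross and p = 0.096 in the Flcn/Tfe3 cross. Many of these CPM values lie near the level of 3 counts.

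Rhcg (chr7:79593363-79617657, minus strand), the ammonia channel of the side facing the urine, rose in the Flcn cross. It was at 103, 79.1, 89.5, 89.0 and 85.9 CPM in Flcn KO and at 41.0, 65.4, 65.9, 44.3 and 56.4 CPM in control Flcn, with no overlap. Rhcg had a log2 fold change of 0.72 ± 0.14 with an adjusted p of 0.022 by edgeR. It was no longer called (adjusted p = 0.051 to 0.066) without control Flcn replicate 1 or 4 or without Flcn KO replicate 1, 3 or 4, where the log2 fold change was 0.65 to 0.73. In Flcn/Tfeb DKO it was at 75.0, 61.6, 72.0 and 57.2 CPM against 55.9, 56.7 and 63.1 CPM, overlapping (log2 fold change 0.19 ± 0.17, adjusted p = 0.81). The exact permutation test gave p = 0.26 there. The Flcn/Tfe3 DKO libraries ranged from 50.4 to 82.3 CPM (median 57.0) and controls from 31.5 to 68.0 CPM (median 48.5), separated within set C and overlapping within set B. That log2 fold change was 0.33 ± 0.13 with an adjusted p of 0.49, and an exact permutation p of 0.0247.

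Rhbg (chr3:88242874-88254709, minus strand), the ammonia transporter of the side facing the blood, overlaps the counted gene Gm38392 on the same strand, so its counts are uncertain where the 2 genes share reads. Its levels were 61.4, 63.6, 62.5, 79.8 and 61.5 CPM in Flcn KO and 55.1, 43.7, 48.4, 40.3 and 38.4 CPM in control Flcn. All mutant libraries were above all controls, 4 of the 5 within a few CPM of each other. Rhbg had a log2 fold change of 0.55 ± 0.13, with an adjusted p of 0.081 in edgeR and 0.032 in DESeq2. Rhbg in the Flcn/Tfeb cross was at 36.3, 27.0, 42.4 and 34.2 CPM in DKO and 38.4, 41.6 and 68.9 CPM in controls, overlapping (log2 fold change -0.50 ± 0.24, adjusted p = 0.80). Control replicate 3 again held the highest value, and without it the log2 fold change was -0.17. Rhbg in the Flcn/Tfe3 cross ranged from 37.4 to 60.7 CPM (median 50.9) against 26.8 to 72.9 CPM (median 41.6), within which the groups overlapped (log2 fold change 0.13 ± 0.13, adjusted p = 0.88). That value was 0.065 without control Flcn/Tfe3 replicate 4 and 0.26 without control Flcn/Tfe3 replicate 3.

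The carbonic anhydrases differed from each other. Car12 (chr9:66713686-66766845, plus strand), a membrane-bound enzyme facing the outside of the cell, rose in the Flcn and Flcn/Tfe3 crosses. In Flcn KO it was at 110, 106, 103, 87.2 and 90.3 CPM and in control Flcn at 62.2, 78.0, 59.6, 68.3 and 57.3 CPM, with no overlap. Its log2 fold change was 0.62 ± 0.12 (adjusted p = 0.017). The call was lost (adjusted p = 0.053 to 0.067) without control Flcn replicate 3 or without Flcn KO replicate 1, 2 or 3, at log2 fold changes of 0.58 to 0.61. Among Flcn/Tfe3 libraries it ranged from 102 to 122 CPM (median 112) in DKO and from 57.4 to 78.6 CPM (median 63.1) in controls. These groups did not overlap either. The log2 fold change there was 0.76 ± 0.08 (adjusted p = 4.4e-06), rank 4 of all genes tested by p, and in set B alone it was 0.65 and not called (adjusted p = 0.077). Car12 in the Flcn/Tfeb cross was at 65.3, 55.3, 67.0 and 69.2 CPM in DKO and 73.9, 64.2 and 81.9 CPM in controls, which overlapped (log2 fold change -0.18 ± 0.16, 95% interval -0.54 to 0.18, adjusted p = 0.81, and -0.09 without control replicate 3).

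Car2 (chr3:14886273-14900770, plus strand), the cytosolic enzyme that red cells also hold, did not pass the test in any cross. It was at 106, 114, 108, 103 and 97.9 CPM in Flcn KO and 100.3, 92.9, 108, 97.0 and 95.1 CPM in control Flcn. Car2 had a log2 fold change of 0.11 ± 0.10, with a 95% interval from -0.10 to 0.32. In Flcn/Tfeb DKO it was 87.5, 74.2, 69.7 and 90.2 CPM against 85.0, 74.6 and 140 CPM, the last again control replicate 3, and in the Flcn/Tfe3 cross 98.2 to 148 CPM (median 113) against 78.6 to 146 CPM (median 119). The groups overlapped in all 3 crosses. The 2 DKO log2 fold changes were -0.31 ± 0.22 and 0.03 ± 0.11, and the first was 0.021 without control replicate 3.

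**Figure D2:**
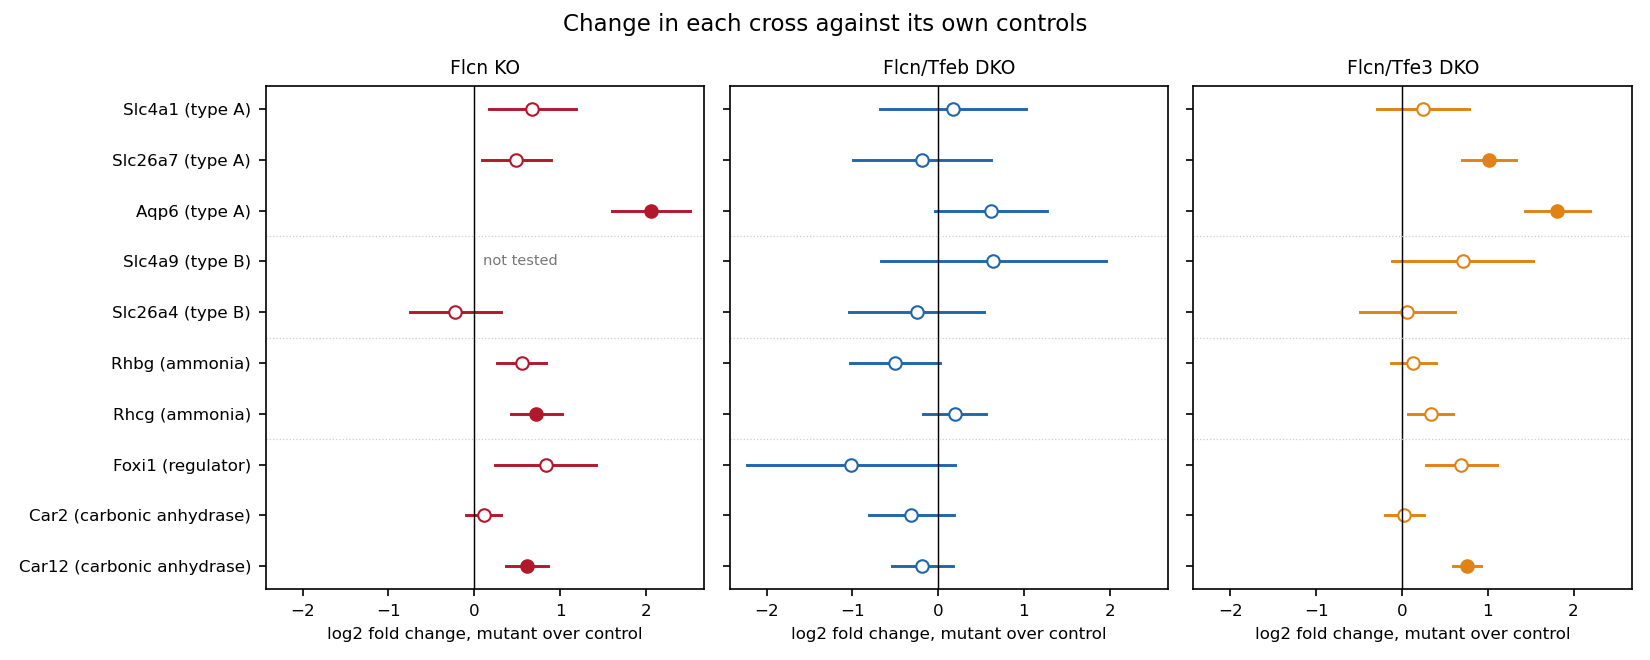
Log2 fold change (x axis) of each gene in the 3 crosses, each against its own controls. Points are edgeR estimates, bars 95% intervals and filled points genes called at an adjusted p under 0.05. Aqp6 at 2.06 and 1.81 lies furthest from 0 in the Flcn KO and Flcn/Tfe3 DKO panels, and no point of the Flcn/Tfeb DKO panel is filled.

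Counted by whether all mutant libraries lay on one side of all controls, 5 of the 10 genes were separated upwards in the Flcn cross (Aqp6, Rhbg, Rhcg, Foxi1 and Car12), where 1.66% of all genes tested were, and none downwards (0.763%). In the Flcn/Tfeb cross this held for 1 (Aqp6) upwards, against 2.56% of all genes, and for none downwards (3.14%). Over all 18 libraries of the Flcn/Tfe3 cross it held for 2 (Aqp6 and Car12), against 0.136%. Within set B the count was 3, with Slc26a7 added (1.71% of all genes), and within set C it was 5, with Rhcg and Foxi1 also added (4.02%). None of the 10 had all mutant libraries below all controls in the Flcn/Tfe3 cross (0.00803% of all genes), in its set B (1.2%) or in its set C (2.11%).

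Type A and type B genes were next set against each other. In the Flcn cross the summed level of Slc4a1, Slc26a7 and Aqp6 was 138 ± 21 CPM (SD, n = 5) in Flcn KO and 52.9 ± 8.41 CPM (n = 5) in controls. The summed level of Slc4a9 and Slc26a4 was 11.4 ± 2.93 and 11.1 ± 1.38 CPM. Type A sums of the 2 groups did not overlap (110.6 to 164.6 against 42.3 to 63.1 CPM), while the type B sums of mutants covered the whole control range. In the Flcn/Tfe3 cross type A sums were 93.2 ± 17.7 CPM (n = 10) in DKO and 40.0 ± 8.71 CPM (n = 8) in controls, and type B sums 9.01 ± 2.07 and 7.37 ± 2.62 CPM. In the Flcn/Tfeb cross they were 55.6 ± 11.6 (n = 4) and 45.9 ± 3.57 CPM (n = 3) for type A and 12.2 ± 3.87 and 12.1 ± 2.97 CPM for type B, and both sums overlapped between the groups.

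As a balance, the mean log2 CPM of the 3 type A genes less that of the 2 type B genes was 2.64 ± 0.24 in Flcn KO and 1.77 ± 0.35 in control Flcn, a difference of 0.87. Taken as the log2 of the summed levels, which gives the more abundant genes more weight, the difference was 1.37, and Aqp6 made up 91.4 of the 138 CPM of the type A sum in Flcn KO. All mutants but 1 lay above every control, control replicate 2 reaching 2.38 against a lowest mutant value of 2.34. The balance was 1.44 ± 0.34 in Flcn/Tfeb DKO and 1.42 ± 0.41 in its controls, a difference of 0.02 that ran from -0.22 (without control replicate 1) to 0.16 (without control replicate 2) when 1 library was left out. In the Flcn/Tfe3 cross it was 2.54 ± 0.34 and 1.88 ± 0.39, a difference within sets of 0.65 (0.50 in set B and 0.78 in set C). Since the genes were chosen with results known, these are descriptions with no test. The ratio of Slc26a7 to Slc26a4 alone had medians of 1.42 on the log2 scale in Flcn KO and 0.65 in control Flcn, 0.37 and 0.74 in the Flcn/Tfeb cross, and 2.08 and 1.30 in the Flcn/Tfe3 cross, and in each cross the ranges overlapped.

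**Figure D3:**
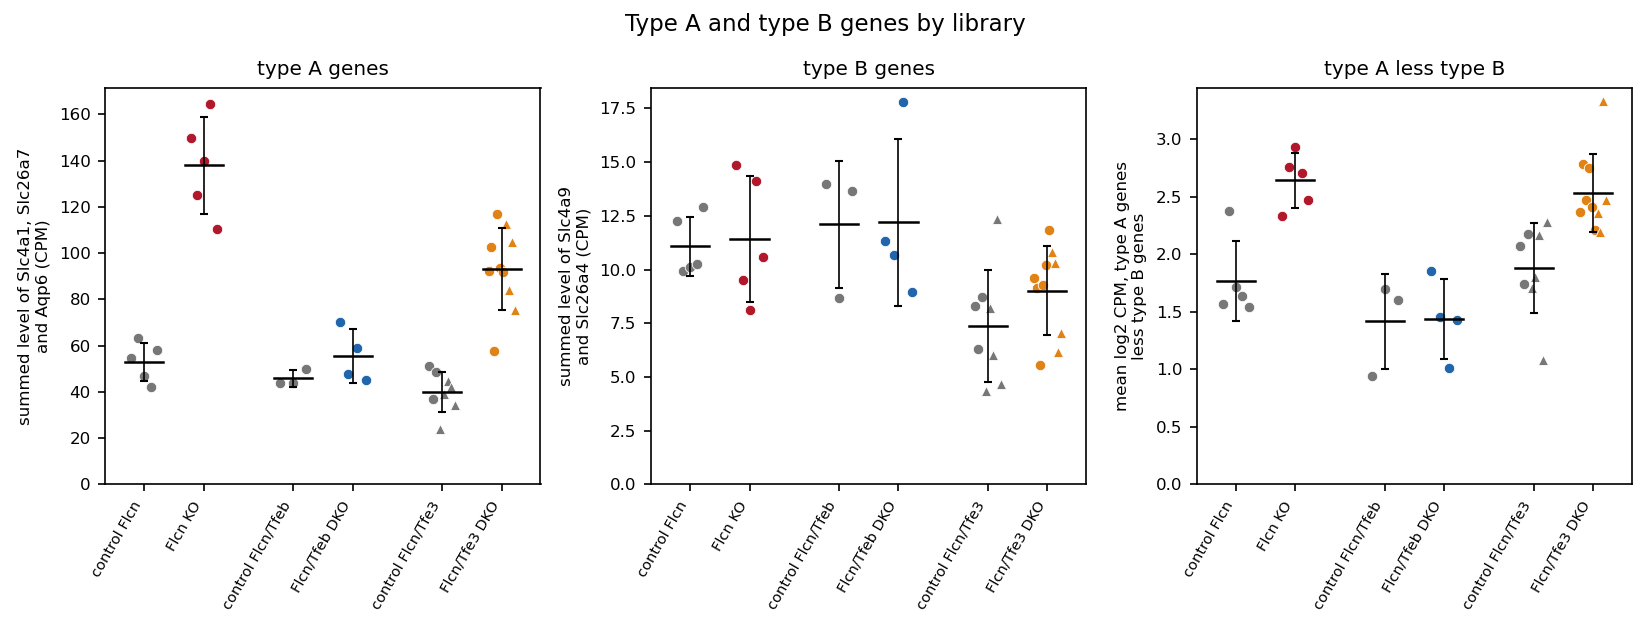
Summed level of the type A genes and of the type B genes (CPM) and the mean log2 CPM of type A less type B genes, by library. Points are libraries (triangles are set C), horizontal bars means and vertical bars 1 SD. Type A sums of Flcn KO (110.6 to 164.6 CPM) and Flcn/Tfe3 DKO (57.7 to 116.8 CPM) lie above those of their controls, and type B sums overlap in every cross.

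Whether the crosses differed was tested directly, as the difference between 2 log2 fold changes, each taken against matched controls. The Flcn/Tfe3 DKO effect exceeded the Flcn/Tfeb DKO effect for Car12, by 0.92 ± 0.15 on the log2 scale (adjusted p = 0.0085), 1 of 10 genes called where 0.022% of 13637 genes were. All 10 differences were above 0 as fitted, where 50.3% of all genes were, though those of Slc4a1, Slc4a9, Slc26a4 and Rhcg turned sign under other settings. The largest were Foxi1 at 1.71 ± 0.51, Aqp6 at 1.19 ± 0.36 and Slc26a7 at 1.18 ± 0.34 (adjusted p = 0.28 for each). Without control Flcn/Tfeb replicate 3 the Foxi1 difference was 0.39, and Car12, at 0.85, was no longer called. The call for Car12 was also lost without Flcn/Tfeb DKO replicate 2. The median of the 10 differences was 0.47, and some lists of other cells shifted too. All 5 endothelium genes (median 0.50) and all 6 thick ascending limb genes (median 0.43) were above 0. None of 8 red blood cell genes tested (median -1.11) or 4 distal convoluted tubule genes (median -0.36) was. Of 17 other genes of intercalated cells tested 6 were above 0 (median -0.06), and of 11 principal cell genes 5 were (median -0.06). The part of these cells in the 10 differences was not tested.

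The Flcn/Tfeb DKO effect less the Flcn KO effect was below 0 for all 10 genes as fitted, where 46.7% of all genes were above 0, but none was called by edgeR or DESeq2, where 0.0153% of 13049 genes were. The median of the 10 was -0.60. None of 5 endothelium (median -0.49), 5 tested red blood cell (-0.20) or 4 tested urothelium genes (-0.21) was above 0. Of 6 thick ascending limb genes 1 was (-0.41). On other lists more were, 4 of 5 stroma (0.22) and 5 of 6 myeloid genes (0.20) among them. Of 16 other genes of intercalated cells tested 7 were above 0 (-0.09), and of 11 principal cell genes 3 were (-0.30). Unadjusted p values under 0.05 were found for 776 of the 13049 genes and for 5 of the 10, Car12 (-0.80 ± 0.19), Rhbg (-1.06 ± 0.26), Aqp6 (-1.46 ± 0.38), Foxi1 (-1.88 ± 0.61) and Rhcg (-0.53 ± 0.22). Their adjusted p values ran from 0.38 to 0.82. Foxi1 was at -0.53 and Rhbg at -0.72 without control Flcn/Tfeb replicate 3. The type B genes had -0.06 ± 0.68 (Slc4a9) and -0.04 ± 0.40 (Slc26a4), and both turned sign when 1 library was left out: Slc4a9 ran from -0.49 (without control Flcn/Tfeb replicate 3) to 0.67 (without control Flcn/Tfeb replicate 1), and Slc26a4 from -0.22 (without control Flcn/Tfeb replicate 2) to 0.30 (without control Flcn/Tfeb replicate 3).

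The Flcn/Tfe3 DKO effect less the Flcn KO effect was above 0 for 4 genes and below 0 for 6, and none was called by edgeR or DESeq2, nor was any of the 13209 genes tested (0.0%, with 978 at an unadjusted p under 0.05). Slc26a7 had 0.53 ± 0.24 and Rhbg -0.42 ± 0.20, both with an unadjusted p under 0.05 and an adjusted p of 0.66. For Aqp6 the difference was -0.25 ± 0.31, with a 95% interval from -0.87 to 0.38, and for Car12 0.14 ± 0.13, with an interval from -0.12 to 0.41. With 1 library left out, the difference ran from -0.41 to -0.055 for Aqp6 and from 0.066 to 0.19 for Car12. A p that misses the threshold does not show that these effects were equal. Each pair of these 3 comparisons shares the libraries of a cross, so they are not independent.

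**Figure D4:**
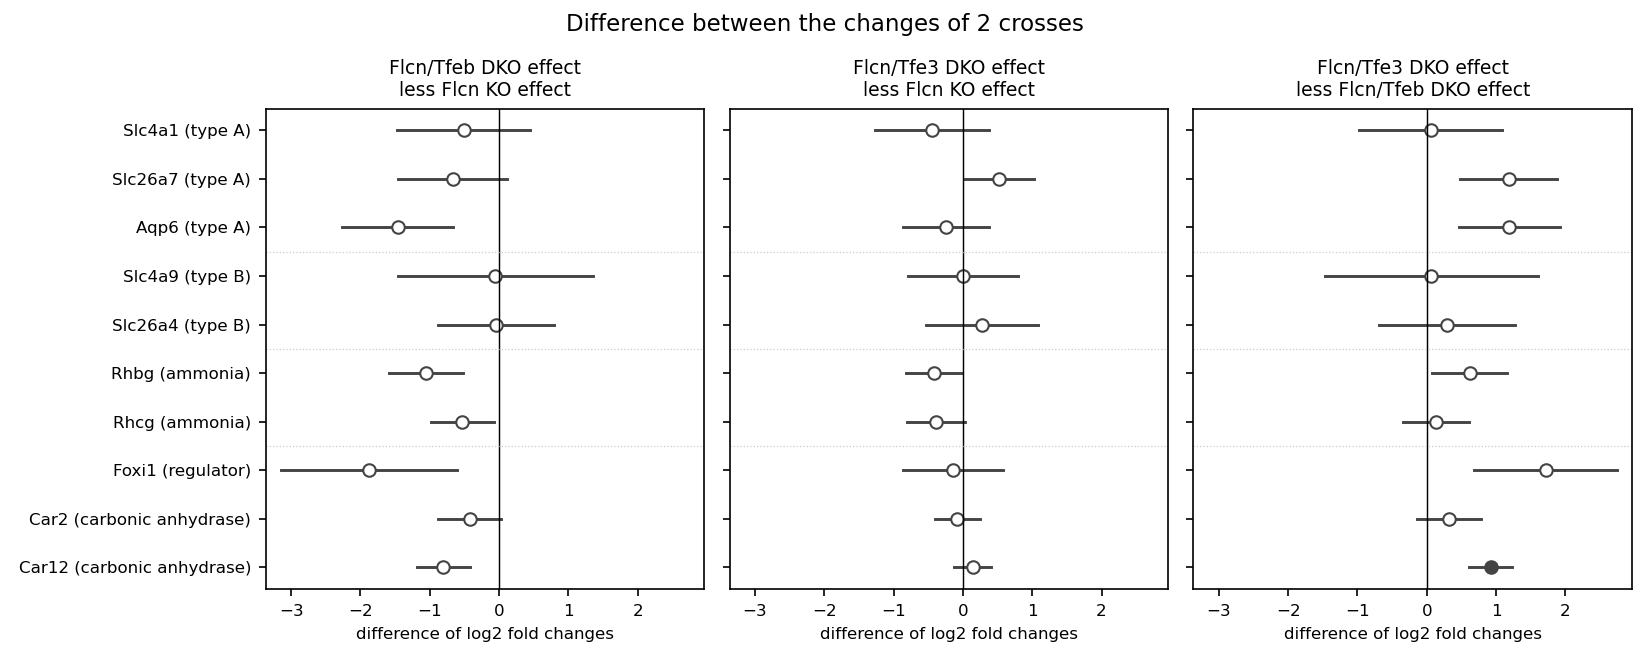
Difference between the log2 fold changes of 2 crosses (x axis) for each gene, with 95% intervals. Filled points are called at an adjusted p under 0.05. Car12 at 0.92 in the right panel is the only filled point among the 3 panels.

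Other genes of intercalated cells, from a list of 19, showed no call in any cross, with 14 of them tested in Flcn KO, 16 in Flcn/Tfeb DKO and 16 in Flcn/Tfe3 DKO, and medians of -0.03, 0.01 and 0.17. Bsnd, which encodes barttin, was at 28.2 ± 7.53 CPM in Flcn KO and 19.2 ± 6.62 in controls, a log2 fold change of 0.59 ± 0.23 (adjusted p = 0.42). Hepacam2 had log2 fold changes of 0.41 ± 0.19, 0.77 ± 0.26 and 0.41 ± 0.13 in the 3 crosses, none of them called. Bsnd is also transcribed in the thick ascending limb.

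Of 16 acid-base genes known mainly from other segments or transporter families, Atp12a rose and Pck1 fell in the Flcn and Flcn/Tfe3 crosses, and no other was called. Atp12a, a potassium-transporting proton pump of the collecting duct, was at 55.5 to 86.4 CPM (mean 70.0) in Flcn KO against 20.4 to 31.1 CPM (mean 25.9) in controls, a log2 fold change of 1.44 ± 0.15 (adjusted p = 8.2e-05). It was at 44.9 to 65.8 CPM in Flcn/Tfe3 DKO against 20.2 to 38.3 CPM (1.0 ± 0.12, adjusted p = 2.6e-05), and at 23.3 to 29.9 CPM in Flcn/Tfeb DKO against 20.6 to 34.4 CPM (0.05 ± 0.23). Pck1, the enzyme of gluconeogenesis that serves ammonia production in the proximal tubule, fell by 0.83 ± 0.15 in the Flcn cross (adjusted p = 0.0092) and by 0.65 ± 0.14 in the Flcn/Tfe3 cross (adjusted p = 0.029), and was at -0.22 ± 0.24 in the Flcn/Tfeb cross. Slc9a2, a sodium-proton exchanger, was at 0.47 ± 0.30, -1.10 ± 0.38 and 0.13 ± 0.18 and was not called.

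Markers of other segments moved in part with these genes. Umod (uromodulin) and Ptger3 (a prostaglandin receptor), 2 of 6 genes of the thick ascending limb, rose in the Flcn cross (1.0 ± 0.12 and 1.12 ± 0.20) and in the Flcn/Tfe3 cross (0.71 ± 0.10 and 1.09 ± 0.19), with summed levels of the 6 genes of 1261 to 1629 CPM in Flcn KO against 911 to 1298 CPM in controls, which overlapped. The medians of the 6 were 0.16 and 0.09 in those crosses, and Cldn16, a claudin, was at -0.29 ± 0.21 and -0.19 ± 0.16, not called. Of 11 principal cell genes, Scnn1b, a subunit of the epithelial sodium channel, rose in the Flcn cross (0.58 ± 0.13, adjusted p = 0.049), and the summed levels of the list overlapped (563 to 705 against 604 to 707 CPM). The median of the 11 was 0.16 there and -0.01 in the Flcn/Tfe3 cross, and Aqp2, the water channel that marks these cells, was at -0.48 ± 0.14 and -0.40 ± 0.11 (adjusted p = 0.20 and 0.21), not called. No gene was called on the lists of distal convoluted tubule, proximal tubule, ureteric tip, nephron progenitor, podocyte, endothelium, stroma, myeloid cells and urothelium in any cross. The part of these cell types in the differences above was not tested.

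Variation among the 16 controls was described for 9 of the 10 genes, Slc4a9 being too low. After the mean of each cross and set was taken away, the correlations between pairs of the 9 genes ran from -0.49 (Slc26a7 with Aqp6) to 0.70 (Slc4a1 with Slc26a4). They are descriptions over 16 libraries that also differ in depth. The genes outside the 10 that were most alike in pattern to their mean, among 12112 genes, were Tada2b (Pearson r = 0.91), Trpv4 (0.89), Fhod3 (0.89), Qprt (0.88) and Slc39a5 (0.88). Without the 2 controls furthest out, control Flcn/Tfeb replicate 3 and control Flcn/Tfe3 replicate 6, these were 0.79 to 0.83. Over all 16 controls the 9 genes themselves followed their mean at r from -0.02 (Slc26a7) to 0.81 (Rhbg). That mean was therefore not a pattern common to all 9.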

How the data were processed

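RNA of 35 mouse kidneys was measured by 3′ sequencing. According to the labels and the study's methods, the authors trimmed reads (the methods name bbduk and the labels Trim Galore), aligned them with STAR to the mm10 genome and tallied them over genes in HTSeq-count. The deposited values are raw counts, which the authors had not normalized. Row tallies of unassigned reads (not unique 33.7% to 49.4% and no feature 7.92% to 19.9% in the 26 libraries that list them) were left out of library sizes, as was 1 column of no sample.

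Genes were tested with the quasi-likelihood F test of edgeR 4.0.16 (R 4.3.3) after TMM scaling and filterByExpr, each cross apart, with a term for the deposited set in the Flcn/Tfe3 cross. P-values were adjusted by Benjamini-Hochberg over all genes tested and called under 0.05. Differences between crosses were contrasts in 1 fit over the libraries of both. CPM used TMM factors over all 35 libraries. Single genes were also tested by exact two-sided permutation of log2(CPM + 0.5), within sets for Flcn/Tfe3. The balance used a prior count of 2. Genes outside the 10 were named if called on the acid-base lists, among the 3 largest changes of such a list in the Flcn cross, or among the 5 nearest in pattern over controls, and marker genes where called, with Aqp2 and Cldn16 added after their values were seen. A gene that this rule also names is not reported here. Fits were tested on simulated data with 200 changed genes. Alternatives included DESeq2 1.42.0, other scaling and filters, a red cell covariate and leaving out each library. The members and lists were chosen with earlier results of these data known. P-values measure only the spread between these animals. The 95% intervals come from the same fits and include that spread, while the floors of 3 counts cover counting error only.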

Additional observations from a re-analysis of the deposited data

Results flagged for a closer look

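Among 60 combinations of gene, group and set that were looked at for a library far from the others of its group, 2 stood out, and chance alone flags about 1 in 20 where groups are large enough to be looked at. The 3 Flcn/Tfeb controls and the 3 set B controls were too few to be looked at. Control Flcn/Tfeb replicate 3 was therefore not screened. Slc26a7 in Flcn/Tfeb DKO replicate 4 was at 6.22 CPM, the lowest of 4 libraries, the nearest being at 11.3 CPM. Rhbg in Flcn KO replicate 4 was at 79.8 CPM, the highest of 5 libraries, the nearest being at 63.6 CPM.

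The effect on Car12 differed between crosses, being larger in Flcn/Tfe3 DKO than in Flcn/Tfeb DKO by 0.92 on the log2 scale (adjusted p = 0.0085 by edgeR's quasi-likelihood test). All 10 Flcn/Tfe3 DKO libraries were above their 8 controls, while the 4 Flcn/Tfeb DKO libraries overlapped their 3 controls. The call was lost in 5 of 8 other settings (0.81 to 1.01 on the log2 scale, adjusted p = 2.6e-05 to 0.88 over the 8) and in 2 of 25 fits that left out 1 library, without control Flcn/Tfeb replicate 3 (adjusted p = 0.085) or Flcn/Tfeb DKO replicate 2 (adjusted p = 0.054).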

How the results depend on the processing

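Aqp6 stayed called in the Flcn cross under every setting and every omitted library. Of the 3 genes called there, 1 (Aqp6) remained with the red cell covariate, where Rhcg was at 0.68 and Car12 at 0.53, and 1 to 3 when 1 library was left out, 1 without Flcn KO replicate 1 or 3. DESeq2 called 4, Rhbg added. Over all 11932 genes tested there, 62 were called in the main fit, 36 with the red cell covariate and 113 by DESeq2. In the Flcn/Tfe3 cross the 3 calls held without any 1 library, fell to 1 (Aqp6) in set B alone, and DESeq2 added Foxi1. Calls over all genes of that cross under these settings are not given here. The single call between Flcn/Tfe3 DKO and Flcn/Tfeb DKO (Car12) fell to 0 without a filter, with the red cell covariate, and in set B or set C alone, and ranged from 0 to 2 when 1 library was left out, 0 without control Flcn/Tfeb replicate 3 or Flcn/Tfeb DKO replicate 2 and 2 (with Foxi1) without control Flcn/Tfeb replicate 2. The balance in the Flcn cross was 1.37 as the log2 of summed CPM. The cause of these changes was not tested.

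The labels do not say that replicate numbers pair the samples, and the main fits did not use them as pairs. Same-numbered libraries correlated at -0.22 to 0.29 in the Flcn cross, -0.14 to 0.18 in the Flcn/Tfeb cross, and -0.38 to 0.35 (set B) and -0.08 to 0.003 (set C) in the Flcn/Tfe3 cross. So few values cannot decide whether the numbers pair animals. With the replicate block 2 genes were called in the Flcn cross (Aqp6 and Car12), 0 in the Flcn/Tfe3 cross and 0 between the 2 DKO effects. Under the block the log2 fold change was 0.043 for Slc26a7 in Flcn/Tfeb DKO, and in Flcn/Tfe3 DKO -0.044 for Slc4a1 and -0.032 for Slc26a4. The differences became 0.015 (Slc4a9) and 0.14 (Slc26a4) for Tfeb less Flcn, -0.085 (Slc4a9) and 0.038 (Car2) for Tfe3 less Flcn, and -0.22 (Slc4a1) and -0.077 (Slc4a9) for Tfe3 less Tfeb.

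Other sign changes were all in comparisons where the gene was not called. With the red cell covariate they were Slc4a1 at -0.21 (Flcn/Tfeb DKO), Rhbg at -0.034 (Flcn/Tfe3 DKO) and Rhcg at -0.075 (Tfe3 less Tfeb). In set B alone they were Slc4a1 at -0.037 and Rhbg at -0.057 (Flcn/Tfe3 DKO), Car2 at 0.081 (Tfe3 less Flcn), and Slc4a1 at -0.23 and Rhcg at -0.12 (Tfe3 less Tfeb). In set C alone they were Car2 at -0.16 (Flcn/Tfe3 DKO) and Slc4a9 at -0.16 (Tfe3 less Flcn) and -0.11 (Tfe3 less Tfeb). Car2 was at -0.039 without the set term, Slc4a9 at -0.0097 by DESeq2 and -0.0092 by RLE scaling (Tfe3 less Flcn), and the log2 difference of Slc4a1 in the permutation test (Flcn/Tfeb DKO) was 0.0014 with a pseudocount of 2 against -0.011 with 0.5.

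Leaving out 1 library gave, in Flcn/Tfeb DKO, -0.26 to 0.39 for Slc4a1, -0.44 to 0.16 for Slc26a7, 0.32 to 0.94 for Aqp6, 0.21 to 1.36 for Slc4a9, -0.42 to 0.073 for Slc26a4, -1.40 to 0.30 for Foxi1 and -0.47 to 0.021 for Car2. In Flcn/Tfe3 DKO it gave -0.070 to 0.16 for Slc26a4 and -0.057 to 0.080 for Car2. Tfeb less Flcn ran from -0.49 to 0.67 for Slc4a9 and -0.22 to 0.30 for Slc26a4. Tfe3 less Flcn ran from -0.28 to 0.28 for Slc4a9 and -0.34 to 0.061 for Foxi1. Tfe3 less Tfeb ran from -0.16 to 0.49 for Slc4a1, -0.67 to 0.50 for Slc4a9 and -0.018 to 0.46 for Slc26a4. Depth limits Slc4a9 most, with 1 to 22 counts per library.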
